A study of Rattus norvegicus with 36 samples.

Results

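Genes of calcineurin signaling, of its NFAT targets and of fiber type control were followed in rat soleus muscle after spinal cord injury (SCI). The 9 genes were Ppp3ca, Ppp3cb, Nfatc1, Nfatc3, Rcan1, Myoz2, Six4, Eya1 and Sox6. They were chosen by name, with earlier results of these data known, so their counts of calls are not independent of the data. A probe set counted for a gene if the array annotation gave it that symbol and no other, and a gene with several such probe sets was read from the one that was brightest on average in log2 terms. This gave 14 probe sets of the 31042 tested, and 9 genes of the 14217 that have a probe set with 1 symbol. All 9 genes lay above the 40th percentile of mean log2 signal, so a filter on dim probe sets kept each of them.

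The study hybridised total RNA of the left soleus from 36 adult female Sprague Dawley rats to Affymetrix Rat Genome 230 2.0 arrays, with 1 rat per array and 6 rats per group. Controls (CTR) were uninjured rats of matched age. All other rats received a moderate contusion of the thoracic spinal cord and were killed untrained on day 3 (SCI3d), day 8 (SCI8d) or day 14 (SCI14d), or after treadmill training that began on day 7. The SCI8d + TM rats had 3 short sessions with body weight support as needed, the SCI14d + TM rats were trained for 5 days with repeated sessions, and muscle was taken 8 hours after the last session. Injured rats were operated on under ketamine and xylazine, received buprinex and ketoprofen as analgesics, and were housed singly with manual emptying of the bladder, so injury cannot be told apart from these. Experimental animals also had a transgenic dough diet at hand to keep up food intake.

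Calcineurin is a phosphatase that is switched on by calcium and calmodulin when a motor nerve keeps muscle active. Ppp3ca and Ppp3cb each encode a form of its catalytic subunit, and are not its only subunit genes. It removes phosphate from NFAT factors such as Nfatc1 and Nfatc3, which then enter the nucleus and favor genes of slow fibers, the main fiber type of the soleus. Rcan1 binds and restrains calcineurin and is itself an NFAT target, and Myoz2 (calsarcin-1) holds calcineurin at the Z-disc of slow fibers. Six4 and its cofactor Eya1 act on genes of fast fibers, and Sox6 represses genes of slow fibers.

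Sequence upstream of the start was at hand for 6 of the 9 genes in RefSeq windows of build GRCr8. The 250 bases before the start are shown for Rcan1 and Myoz2, the genes here whose products bind calcineurin, because Rcan1 is a known NFAT target. They lie at chr11:45118237-45118486 and chr2:213852779-213853028, both on the minus strand, and are written 5′ to 3′. The Myoz2 window ends where the gene begins, and the Rcan1 window lies within the annotated span of the gene, before an internal start. Which Rcan1 isoform begins there was not checked. Capitals mark the core that NFAT factors bind, GGAAA, or its reverse complement TTTCC.
Rcan1: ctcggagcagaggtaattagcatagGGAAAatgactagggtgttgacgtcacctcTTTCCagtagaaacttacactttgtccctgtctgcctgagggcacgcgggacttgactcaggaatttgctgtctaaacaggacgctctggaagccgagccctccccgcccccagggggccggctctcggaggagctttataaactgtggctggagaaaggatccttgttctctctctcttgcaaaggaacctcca
Myoz2: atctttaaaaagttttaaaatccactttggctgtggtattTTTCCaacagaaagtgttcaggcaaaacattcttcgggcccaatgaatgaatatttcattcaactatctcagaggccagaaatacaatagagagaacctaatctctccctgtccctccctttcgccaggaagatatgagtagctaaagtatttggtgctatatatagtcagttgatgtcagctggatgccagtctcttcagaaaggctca
The Rcan1 window held 2 matches and the Myoz2 window 1. Ppp3cb had 1 match, Six4 had 2, and Ppp3ca and Sox6 had 0. The core is short and common: 56.9% of all 33469 windows of this length held it on one strand or the other. The longer MEF3 motif TCAGGTT, which Six4 binds, was found on either strand in 0 of the 6 windows and in 3.3% of all windows. A match is only a match of letters, and the arrays measured no binding.

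The signals are MAS5 intensities with 1 global scale per array, and they compare the same probe set between arrays but not one gene with another. The 36 arrays were scaled to nearly the same trimmed mean (800.3 to 800.4) and correlated with each other at 0.85 to 0.976 over log2 signals. The ratio of the 3′ to the 5′ GAPDH control probes, a sign of RNA quality, was 1.02 to 1.21 on 33 arrays and 1.33 to 1.61 on CTR replicate 3, SCI14d replicate 4 and SCI14d + TM replicate 1. Defining genes of muscle fibers (Acta1, Ckm, Mb, Des and Ttn) were bright on every array. Their summed signal was 230663 to 334654 in CTR, 222800 to 358923 in SCI3d and 166705 to 270995 in SCI14d. Marker genes of 8 cell types were also read. No signal in the data was 0 (the lowest was 0.087), so a signal above 0 does not show that a marker gene was expressed. Summed signals on day 3 lay below every control for the 4 endothelial markers (5093 to 6590 against 6863 to 8837) and the 2 Schwann cell markers (378 to 491 against 905 to 4462). They were lower with some overlap for the 4 adipocyte markers (2195 to 5354 against 5063 to 23438). Of the 2 Schwann cell markers, 1 had a log2 difference above 0 on day 3, so the lower sum does not hold for each of them. On day 3, 3 of 4 adipocyte, 1 of 4 endothelial and 1 of 2 Schwann cell markers fell. So did 1 of 5 fibroblast markers (Lum, -1.06, adjusted p = 0.0398), and 0 of 5 macrophage, 0 of 4 smooth muscle and 0 of 2 satellite cell markers were called. Of all probe sets 16.5% were called. On day 8, 1 of 2 satellite cell markers rose and 1 of 2 Schwann cell markers fell, against 6.29% of all probe sets called. On day 14, 1 of 5 fibroblast markers rose, against 3.19% called. In SCI8d + TM against CTR, 2 of 5 fibroblast, 1 of 5 macrophage and 1 of 2 satellite cell markers rose. In that comparison 2 of 4 adipocyte, 1 of 4 endothelial and 1 of 2 Schwann cell markers fell, and 12.2% of all probe sets were called. In whole muscle, fewer cells of a type and less RNA per cell cannot be told apart, and the part of these cell types in the results below was not tested.

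Of the 9 genes, 4 changed 3 days after SCI. Ppp3ca rose, and Ppp3cb, Nfatc1 and Eya1 fell. Over all probe sets 16.5% were called in this comparison, 7.22% as higher and 9.24% as lower, and 24.9% among probe sets above the 40th percentile of mean signal, as all 9 genes were. Signals of 3 of the 9 genes (Ppp3ca, Nfatc1 and Eya1) did not overlap between the 6 SCI3d arrays and the 6 control arrays, against 7.73% of all probe sets. On day 8 Nfatc1 and Eya1 were still lower than in controls, 2 of 9 against 6.29% of all probe sets called (3.28% as lower, and 9.45% called among the brighter ones). By day 14, 0 of 9 were called, against 3.19% of all probe sets, with 5 of 9 at an unadjusted p under 0.05 in limma and 4 in the methods' t-test. The comparisons on the 3 days share the same 6 controls.

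**Figure D1:**
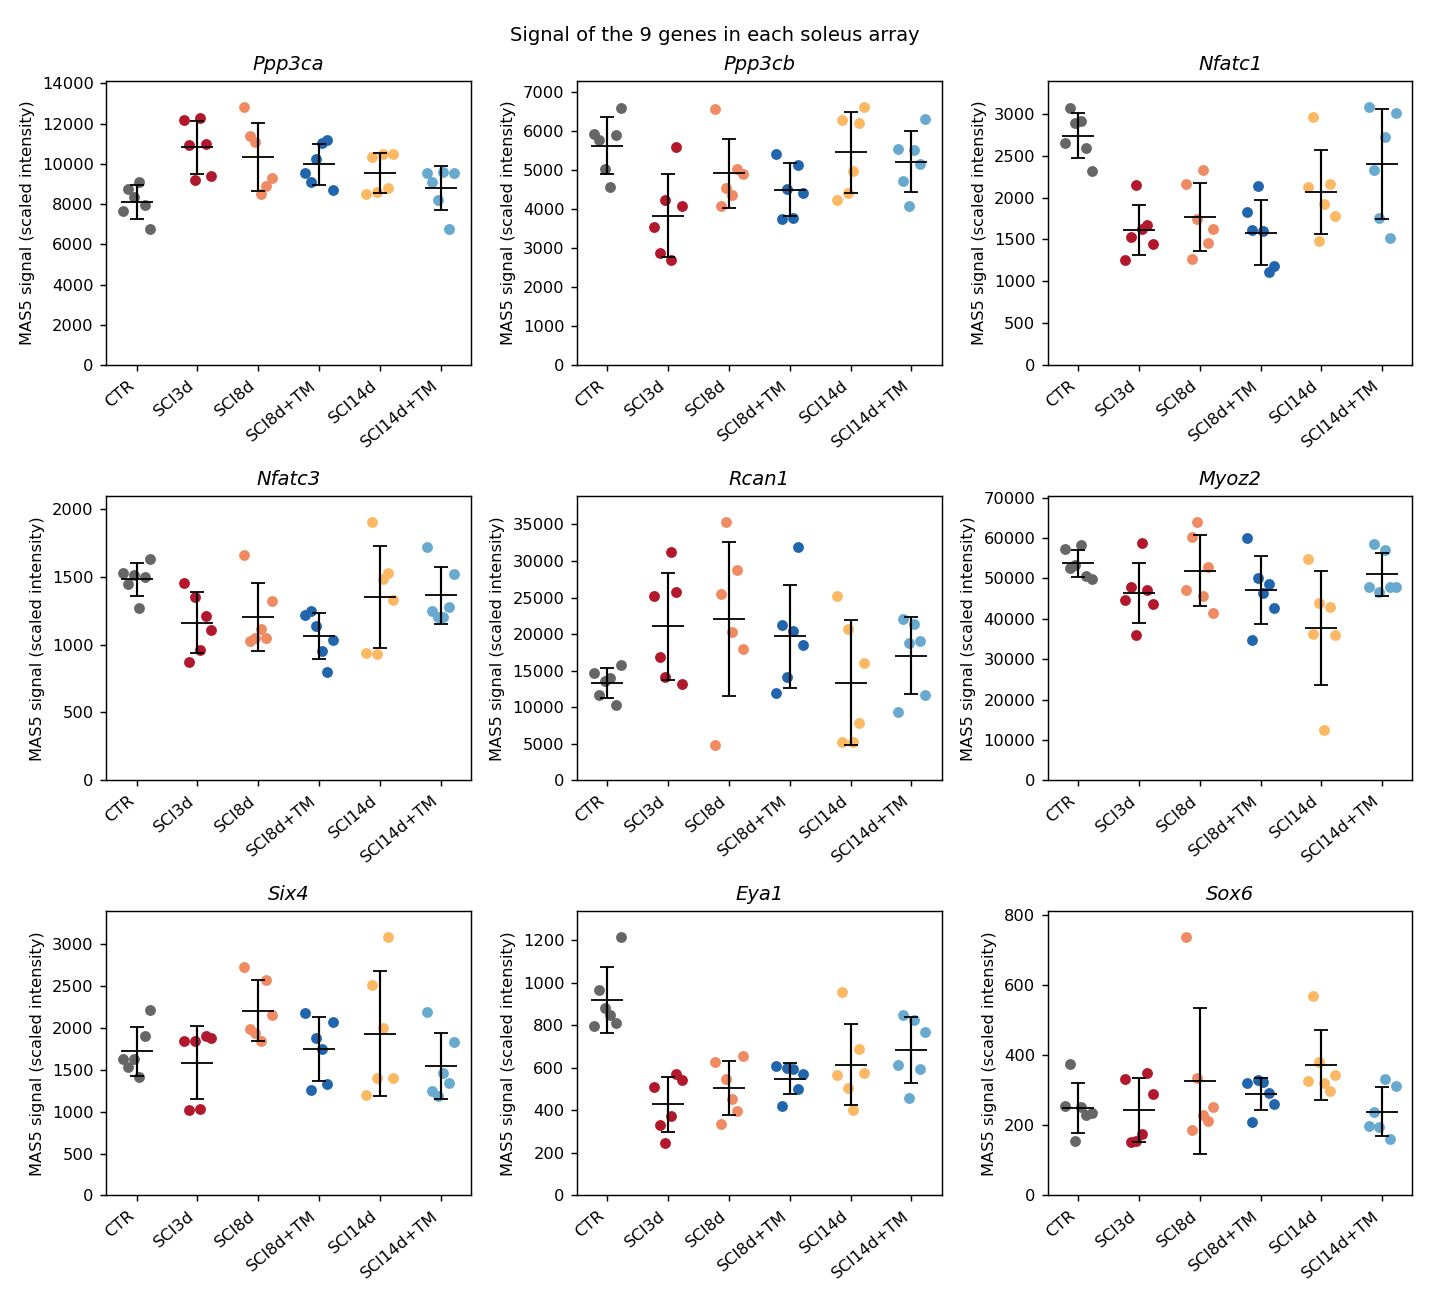
MAS5 signal of each of the 9 genes (vertical axes, linear and starting at 0) in the 6 groups (horizontal axes). Each point is 1 rat, and the black bars give the mean and SD of 6. The 6 SCI3d points sit above all controls for Ppp3ca and below all controls for Nfatc1 and Eya1, and the Rcan1 points spread far more after injury than in controls.

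The calcineurin genes Ppp3ca and Ppp3cb moved in opposite directions on day 3. The Ppp3ca signal was 6770, 8162 and 9116 (lowest, median and highest of 6) in CTR and 9211, 10973 and 12290 in SCI3d. Every SCI3d array was above every control. The log2 difference was 0.42 (SE 0.11, adjusted p = 0.00793), a 1.33-fold rise, with an exact permutation p = 0.00216, the smallest that 6 arrays against 6 allow.

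Later the Ppp3ca differences were smaller and near the threshold. The signal was 8531, 10211 and 12838 in SCI8d and 8501, 9584 and 10504 in SCI14d. Both ranges overlapped the upper controls. The log2 differences were 0.34 (95% interval 0.11 to 0.57, adjusted p = 0.0607) and 0.24 (0.01 to 0.46, adjusted p = 0.259). The day 8 difference was called without the dimmest 40% of probe sets (adjusted p = 0.0356), with the GAPDH ratio as a covariate (0.0446) or replicates 5 and 6 as a batch term (0.045), and without SCI8d replicate 4 (0.0434), and the day 14 difference with scaling to Gapdh (0.47, adjusted p = 0.0329). In order of mean level, Ppp3ca ran SCI3d, SCI8d, SCI8d + TM, SCI14d, SCI14d + TM and CTR, and no neighbors in that order differed by more than the larger of their SDs.

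The Ppp3cb signal was 4559, 5828 and 6592 in CTR and 2705, 3808 and 5583 in SCI3d. The ranges overlapped, and the median of SCI3d lay below the lowest control. The log2 difference was -0.59 (SE 0.15, adjusted p = 0.00565), with an exact permutation p = 0.00866, or 0.0649 after adjustment over 45 exact tests. The call was lost when arrays were scaled to Gapdh (-0.55, adjusted p = 0.0785) and in the methods' t-test after Benjamini-Hochberg adjustment (adjusted p = 0.0576).

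At later times the chosen Ppp3cb probe set was closer to the control level. The signal was 4068, 4723 and 6566 in SCI8d and 4233, 5587 and 6618 in SCI14d, ranges that cover most of the control range. The differences from CTR were -0.20 (95% interval -0.51 to 0.10, adjusted p = 0.482) and -0.06 (-0.36 to 0.25, adjusted p = 0.892). With the mean of the 3 Ppp3cb probe sets the day 8 difference was -0.48 and called (adjusted p = 0.0154). Ppp3cb was the only one of the 9 genes called between SCI14d and SCI3d, with a log2 difference of 0.53 (SE 0.15, adjusted p = 0.0172), in a comparison where 12.9% of all probe sets were called. It was not called with median centring (0.30, adjusted p = 0.245), with the arrays of the 2 groups alone (adjusted p = 0.104), in the methods' t-test after adjustment (adjusted p = 0.158), with the mean of its probe sets (0.31, adjusted p = 0.0842) or without SCI3d replicate 2 (adjusted p = 0.0548) or 4 (adjusted p = 0.0616).

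Since each array carries both genes, the log2 ratio of Ppp3ca to Ppp3cb was also taken within each array, as a description chosen after the day 3 values were seen. It was 0.53 ± 0.33 in CTR and 1.53 ± 0.49 in SCI3d (SD, n = 6 each), a difference of 1.004 on the log2 scale. The ratio was 1.08 ± 0.25 in SCI8d, 1.16 ± 0.25 in SCI8d + TM, 0.82 ± 0.22 in SCI14d and 0.76 ± 0.23 in SCI14d + TM. The highest control (0.9996) and the lowest SCI3d array (0.976) overlapped by a narrow margin. With the other 3 pairs of brighter probe sets the day 3 difference was 1.034 to 1.0997, and with any 1 array left out 0.87 to 1.12. The ratio shows that the 2 genes changed unequally and does not say which changed.

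**Figure D2:**
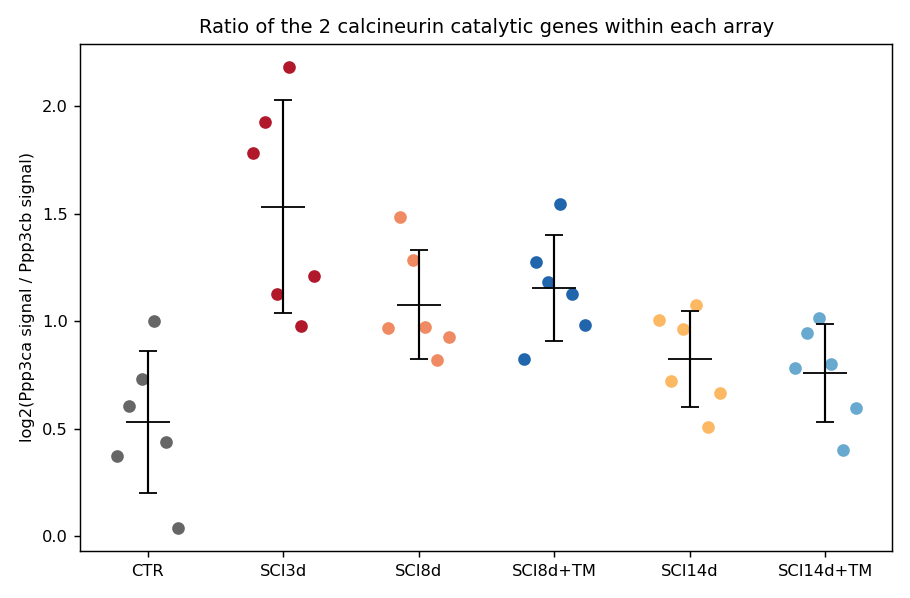
Log2 ratio of the Ppp3ca to the Ppp3cb signal within each array (vertical axis) by group (horizontal axis). Each point is 1 rat, with the mean and SD of 6 in black. The mean was 0.53 in CTR, 1.53 in SCI3d and 0.82 in SCI14d.

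The arrays carry 3 probe sets each for Ppp3ca and Ppp3cb, and they did not all move alike. A second Ppp3ca probe set of similar brightness, 1368277_at, was called on days 3 and 8, with log2 differences of 0.45 and 0.47 (adjusted p = 0.00288 and 0.00711). The third, 1398506_at, was dim, with a median signal of 70.5 in CTR and 61.4 in SCI3d. Its difference on day 3 was -0.49 (95% interval -1.34 to 0.36, adjusted p = 0.496), so the direction of Ppp3ca rests on the brighter probe sets. With the mean of all 3 probe sets the Ppp3ca difference on day 3 was 0.12 (adjusted p = 0.663).

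For Ppp3cb, 1387261_at followed the chosen probe set, with -0.65 and 0.08 on days 3 and 14 (adjusted p = 0.00573 and 0.864). The least bright one, 1379314_at, did not return. Its signal was 899, 1182 and 1377 in CTR, 529, 583 and 653 in SCI8d, and 509, 625 and 787 in SCI14d. All SCI8d and SCI14d arrays lay below all controls. The log2 differences were -0.55, -0.95 and -0.87 on days 3, 8 and 14 (adjusted p = 0.0281, 0.00142 and 0.00553), and -1.18 in SCI14d + TM against CTR (adjusted p = 0.000731). Its change from SCI3d to SCI14d was -0.32 (adjusted p = 0.252), opposite in sign to that of the chosen probe set. Which transcripts each probe set detects was not determined here.

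**Figure D3:**
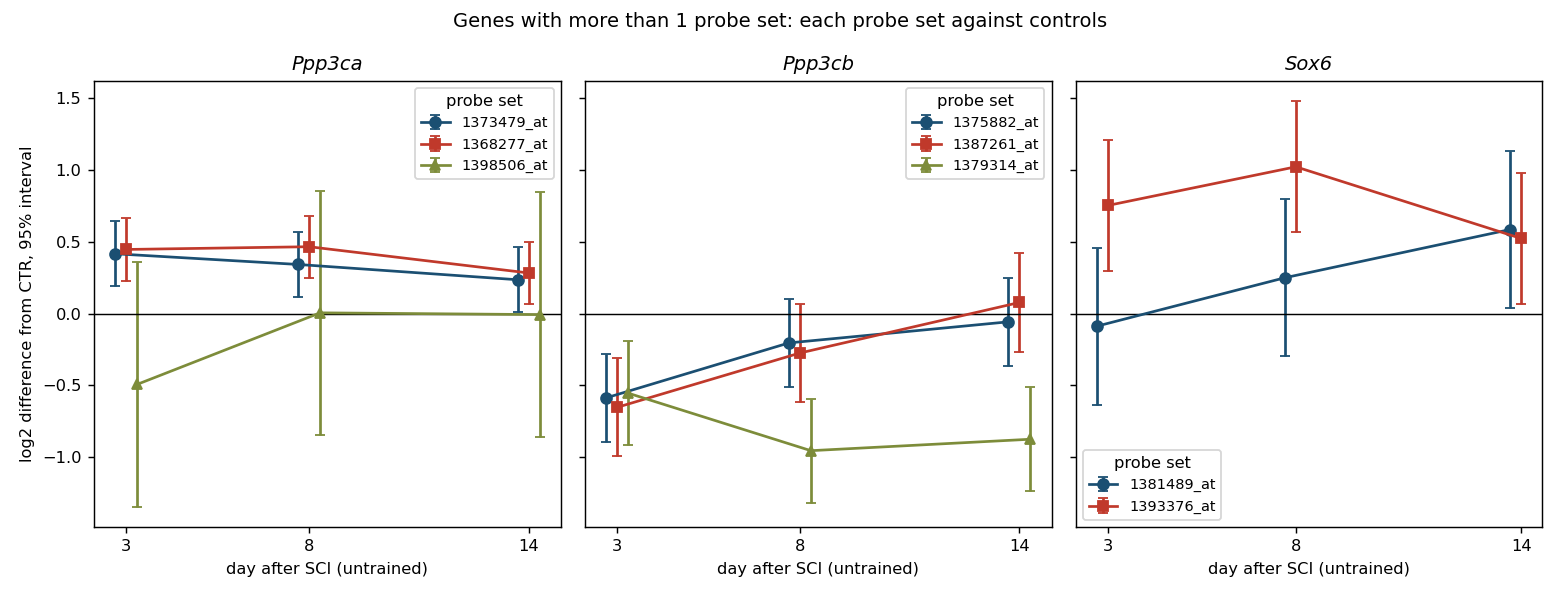
Log2 difference from CTR (vertical axis) of each probe set of Ppp3ca, Ppp3cb and Sox6 in untrained rats by day after SCI (horizontal axis). Points are limma estimates over 6 and 6 arrays and bars their 95% intervals. On day 14 the Ppp3cb probe sets split into 2 near 0 and 1 at -0.87.

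Of the NFAT genes, Nfatc1 was lower after SCI on days 3 and 8. The Nfatc1 signal was 2318, 2773 and 3065 in CTR, 1257, 1578 and 2148 in SCI3d, and 1268, 1688 and 2330 in SCI8d. All SCI3d arrays lay below all controls, and the highest SCI8d array just reached the lowest control. The log2 difference was -0.78 (SE 0.18, adjusted p = 0.00223) on day 3 and -0.66 (SE 0.18, adjusted p = 0.0237) on day 8, or 0.583 and 0.633 of the control level.

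The day 8 call of Nfatc1 was close to the threshold. It was lost without CTR replicate 2 (adjusted p = 0.0541), or without SCI8d replicate 2 (0.0775), 5 (0.0608) or 6 (0.0525), and with scaling to Gapdh (0.0506) or the GAPDH ratio as a covariate (0.0536). The log2 difference stayed between -0.75 and -0.57 with any 1 array left out. On day 14 the Nfatc1 signal was 1486, 2021 and 2960, with a difference of -0.43 (95% interval -0.80 to -0.06, adjusted p = 0.189).

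The Nfatc3 signal was 1270, 1506 and 1633 in CTR, 874, 1158 and 1456 in SCI3d, 1026, 1083 and 1656 in SCI8d, and 927, 1405 and 1903 in SCI14d. Of the 6 arrays each, 4 in SCI3d and 4 in SCI8d lay under all controls, and 1 SCI8d array lay above them all. None of these differences was called. They were -0.37 (95% interval -0.69 to -0.05, adjusted p = 0.109), -0.32 (-0.64 to 0.00, adjusted p = 0.243) and -0.18 (-0.50 to 0.14, adjusted p = 0.608).

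Of the other NFAT genes, Nfatc2, a factor of the same family, rose on day 3 with a log2 difference of 0.90 (SE 0.27, adjusted p = 0.0182). Its signal was 824, 952 and 1122 in CTR and 904, 2027 and 2512 in SCI3d. The SCI3d median was above the highest control, and the ranges overlapped. Nfatc1 and Nfatc2 thus lay on opposite sides of the control mean on day 3.

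Rcan1, the inhibitor of calcineurin, varied widely between injured rats and was not called at any time. The Rcan1 signal was 10253, 13760 and 15732 in CTR, 13123, 21056 and 31252 in SCI3d, 4765, 22840 and 35330 in SCI8d, and 5197, 11905 and 25265 in SCI14d. Within controls the highest signal was 1.53 times the lowest, and within SCI8d and SCI14d 7.42 and 4.86 times. The SD of the log2 signal was 0.23 in CTR, 0.52 in SCI3d, 1.03 in SCI8d and 1.01 in SCI14d.

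None of the Rcan1 differences from CTR was called. They were 0.60 (95% interval -0.16 to 1.36, adjusted p = 0.317), 0.52 (-0.25 to 1.28, adjusted p = 0.47) and -0.26 (-1.02 to 0.50, adjusted p = 0.785). The intervals are wide, and that of day 3 reaches 1.36. The lowest SCI8d array, replicate 1, was also the one with the highest Sox6 signal of the group (736).

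Myoz2, the calsarcin of slow fibers, had its lowest mean in SCI14d. Its signal was 49929, 53070 and 58318 in CTR, 35913, 45824 and 58777 in SCI3d, 41498, 49985 and 63981 in SCI8d, and 12344, 39635 and 54774 in SCI14d. In SCI14d, 5 of 6 arrays were below all controls. The 12344 came from SCI14d replicate 4, 1 of the 3 arrays with a high GAPDH ratio.

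The log2 difference of Myoz2 on day 14 was -0.64 (95% interval -1.05 to -0.22, adjusted p = 0.0752) and was not called, with an exact permutation p = 0.0108. Without SCI14d replicate 4 it was -0.34 (adjusted p = 0.2), and without SCI14d replicate 1 it was called at -0.77 (adjusted p = 0.0314). It was also called with median centring (-0.77, adjusted p = 0.0296), without the dimmest 40% of probe sets (adjusted p = 0.0468) and with the GAPDH ratio as a covariate (-0.69, adjusted p = 0.046). On days 3 and 8 it was -0.23 (-0.64 to 0.19, adjusted p = 0.523) and -0.07 (-0.48 to 0.35, adjusted p = 0.897). On day 14, 0 of 5 muscle fiber markers and 0 of 8 slow contractile genes had a log2 difference from CTR above 0. Their medians were -0.25 and -0.35, against 0.08 for all probe sets. Whether the Myoz2 difference is separate from these was not tested.

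Eya1, the coactivator of Six4, showed the lowest ratio to controls of the 9 genes on day 3. Its signal was 799, 866 and 1215 in CTR, 248, 442 and 571 in SCI3d, 338, 501 and 658 in SCI8d, and 401, 571 and 956 in SCI14d. No SCI3d or SCI8d array reached the lowest control, and 1 SCI14d array lay among the controls. On day 8 it was the only 1 of the 9 genes without overlap, against 2.8% of all probe sets.

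The log2 difference of Eya1 was -1.14 (SE 0.20, adjusted p = 0.000107) on day 3 and -0.89 (SE 0.20, adjusted p = 0.00665) on day 8, or 0.453 and 0.538 of the control level. Both calls held in every setting that was run, leaving out any 1 array included. On day 14 the difference was -0.62 (95% interval -1.03 to -0.21, adjusted p = 0.0822), and it was called with median centring (-0.75, adjusted p = 0.0287), with array weights (-0.61, adjusted p = 0.0397) and without SCI14d replicate 2 (adjusted p = 0.0229). Eya1 levels ran CTR, SCI14d + TM, SCI14d, SCI8d + TM, SCI8d and SCI3d in order of mean. The gap between CTR and SCI14d + TM (0.44 in log2) exceeded the larger SD (0.35), and the other 4 gaps did not.

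Six4, which binds DNA together with Eya1, was not called at any time. Its signal was 1415, 1629 and 2215 in CTR, 1018, 1843 and 1901 in SCI3d, 1845, 2074 and 2730 in SCI8d, and 1201, 1704 and 3085 in SCI14d. All SCI8d arrays were above the control median. The log2 differences were -0.15 (95% interval -0.57 to 0.26, adjusted p = 0.696), 0.36 (-0.06 to 0.78, adjusted p = 0.332) and 0.10 (-0.32 to 0.52, adjusted p = 0.859).

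Sox6 gave a weak signal, at percentile 55.3 of mean log2 signal. Its signal was 155, 244 and 376 in CTR, 153, 232 and 350 in SCI3d, 188, 241 and 736 in SCI8d, and 296, 334 and 569 in SCI14d. Of the SCI14d arrays only 2 exceeded the highest control, and none lay under the control median. The log2 differences were -0.09 (95% interval -0.63 to 0.46, adjusted p = 0.882), 0.25 (-0.30 to 0.79, adjusted p = 0.658) and 0.59 (0.04 to 1.13, adjusted p = 0.239).

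The second Sox6 probe set, 1393376_at, was dimmer and gave a different result. Its signal was 44.9, 113 and 142 in CTR, 126, 182 and 187 in SCI3d, and 142, 198 and 318 in SCI8d. The SCI3d range overlapped the upper controls, and the lowest SCI8d array was level with the highest control. It was called as higher on day 3 (0.75, adjusted p = 0.0171) and day 8 (1.02, adjusted p = 0.00533), and was at 0.52 on day 14 (adjusted p = 0.201). The day 3 sign for Sox6 thus depends on the probe set, and that of the chosen probe set also flips to 0.01 with quantile normalization and with median centring.

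Training was not followed by a called change in any of the 9 genes. Over all probe sets, 0% were called between SCI8d + TM and SCI8d and 0.00322% between SCI14d + TM and SCI14d. For training on day 8, 1343 of all 31042 probe sets had an unadjusted p under 0.05 in limma and 1252 in the methods' t-test. On day 8, 0 of 9 genes had an unadjusted p under 0.05 in limma or in the methods' t-test, and the largest difference was that of Six4, -0.35 (95% interval -0.77 to 0.07, adjusted p = 1). Its signal was 1259, 1821 and 2184 in SCI8d + TM, a range that overlapped that of SCI8d. The other 8 differences on day 8 ran from -0.17 for Nfatc3 to 0.15 for Eya1. Their levels in SCI8d + TM lay within or close to those of SCI8d, with Ppp3ca at 8722, 9913 and 11203, Ppp3cb at 3752, 4463 and 5402, and Rcan1 at 11910, 19485 and 31969. Myoz2 was at 34756, 47553 and 59931 and Sox6 at 209, 307 and 329.

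On day 14, 2 of 9 genes had an unadjusted p under 0.05 in limma and 1 in the methods' t-test. The Myoz2 signal was 46651, 47927 and 58550 in SCI14d + TM, where all arrays were above the SCI14d median of 39635 and 1 SCI14d array was within their range. The difference was 0.56 (95% interval 0.15 to 0.98, adjusted p = 0.722), with an exact permutation p = 0.0368. The Sox6 signal was 160, 218 and 331 in SCI14d + TM, with 2 arrays inside the range of SCI14d. The difference was -0.65 (-1.20 to -0.11, adjusted p = 0.78), with an exact permutation p = 0.0173. By the second Sox6 probe set, 1393376_at, it was -0.105 (-0.56 to 0.35, adjusted p = 0.99).

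The remaining training differences on day 14 ran from -0.27 for Six4 to 0.56 for Rcan1, with adjusted p of 0.924 to 0.994. The Rcan1 signal was 9353, 18898 and 22000 in SCI14d + TM, within the range of SCI14d. Ppp3ca was at 6788, 9325 and 9613, Ppp3cb at 4065, 5329 and 6308, Nfatc3 at 1203, 1262 and 1719, and Six4 at 1184, 1406 and 2194. The training effect itself did not differ between days by a called amount in any gene. The smallest adjusted p of that difference was 0.918, for Myoz2 (0.70, 95% interval 0.11 to 1.29).

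**Figure D4:**
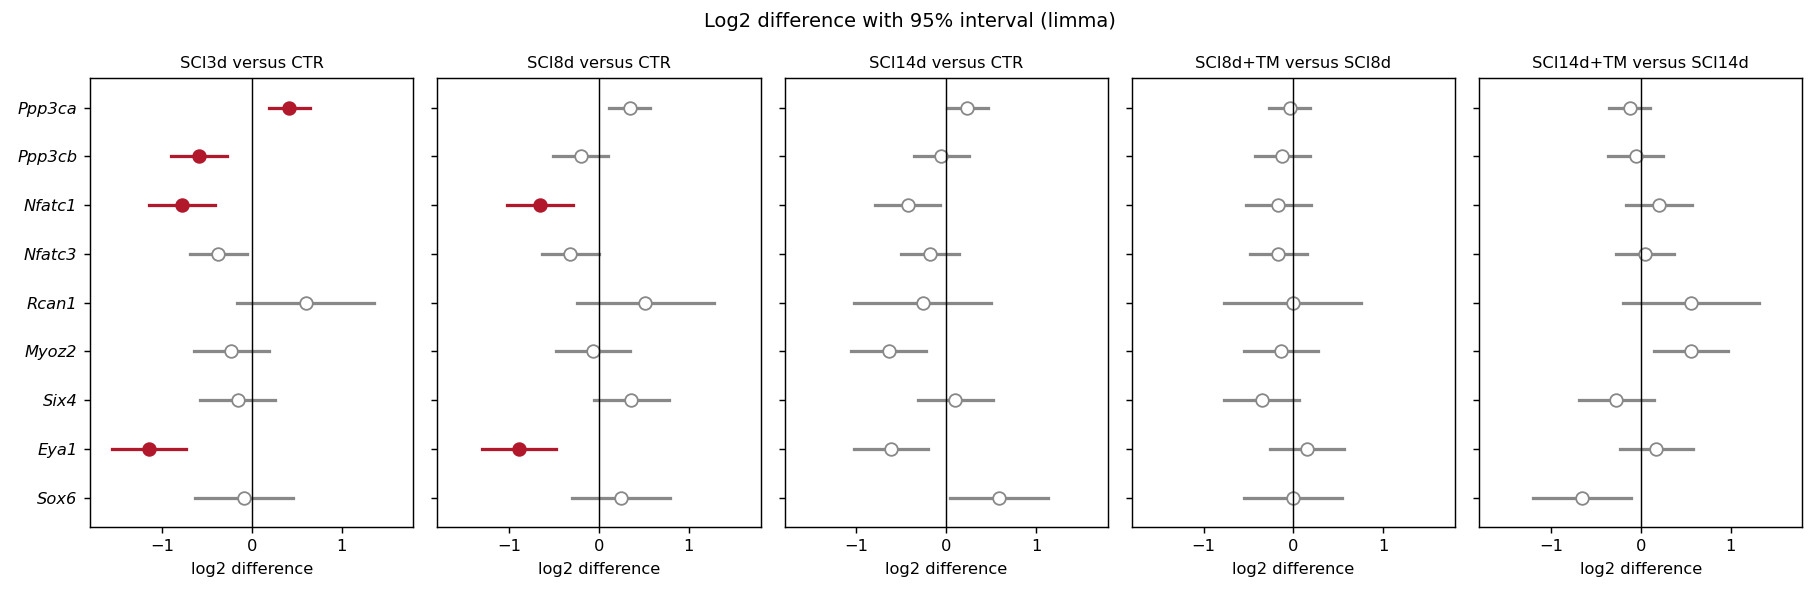
Log2 difference (horizontal axes) of the 9 genes (vertical axis) in the 5 comparisons of the study, each over 6 and 6 arrays. Points are limma estimates, lines their 95% intervals, and filled red marks the called ones. The 6 calls are the 4 on day 3 and the 2 on day 8, and 0 genes were called on day 14 or with training.

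Against controls, SCI8d + TM differed in 3 of the 9 genes, where 12.2% of all probe sets were called. Nfatc1 was lower by a log2 difference of -0.83 (SE 0.18, adjusted p = 0.00252), Eya1 of -0.74 (SE 0.20, adjusted p = 0.0142) and Nfatc3 of -0.49 (SE 0.16, adjusted p = 0.0369). Signals of these 3 genes did not overlap those of controls, against 7.17% of all probe sets. Nfatc1 was at 1111, 1609 and 2140 and Eya1 at 422, 583 and 610. Nfatc3 was at 797, 1088 and 1246, just below the lowest control of 1270, and its call was lost with any 1 of 8 of the 12 arrays left out (adjusted p up to 0.108). It was also lost with scaling to Gapdh (-0.42, adjusted p = 0.226), with no intensity trend (0.0502), with the GAPDH ratio as a covariate (0.0508) and without the arrays of high GAPDH ratio (0.0502). By their chosen probe sets, Ppp3ca (0.30, adjusted p = 0.0734) and Ppp3cb (-0.33, adjusted p = 0.158) were not called in SCI8d + TM against CTR. Other probe sets of both were called. Ppp3ca 1368277_at was at 0.58 (adjusted p = 0.000607), with all 6 trained arrays above all controls. Ppp3cb 1379314_at was at -0.68 (adjusted p = 0.0104). The remaining ones, 1398506_at (-0.29) and 1387261_at (-0.26), were not called.

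SCI14d + TM differed from controls in 0 of 9 genes, with 0.358% of all probe sets called and 1 gene (Eya1) at an unadjusted p under 0.05. That unadjusted threshold was passed by 3747 of all 31042 probe sets. The Eya1 signal there was 457, 691 and 850, and the difference -0.44 (95% interval -0.85 to -0.03, adjusted p = 0.367). That of Nfatc1 was 1520, 2530 and 3083, and the difference -0.23 (-0.60 to 0.13, adjusted p = 0.648). Between SCI8d and SCI3d 0 of 9 genes were called, against 6.79% of all probe sets. An unadjusted p under 0.05 was found for 2 of the 9 and for 6182 of all 31042 probe sets.

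By group mean of log2 signal, from high to low, Ppp3cb ran CTR, SCI14d, SCI14d + TM, SCI8d, SCI8d + TM and SCI3d. Nfatc1 and Nfatc3 shared 1 order: CTR, SCI14d + TM, SCI14d, SCI8d, SCI3d and SCI8d + TM. Controls were also first for Myoz2, before SCI8d, SCI14d + TM, SCI8d + TM, SCI3d and SCI14d. Rcan1 ran SCI3d, SCI8d, SCI8d + TM, SCI14d + TM, CTR and SCI14d, Six4 ran SCI8d, SCI14d, SCI8d + TM, CTR, SCI3d and SCI14d + TM, and Sox6 ran SCI14d, SCI8d, SCI8d + TM, CTR, SCI14d + TM and SCI3d. For these 7 genes none of the 5 gaps between neighbors exceeded the larger of their SDs, so the order is firm only where a test above separates groups.

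Other genes of the calcineurin pathway were read from a list of 17, of which 14 were measured. On day 3, 4 rose and 3 fell. Of all probe sets 7.22% rose and 9.24% fell, and 24.9% of the brighter ones were called. The list's median log2 difference was 0.00 against -0.04 for all probe sets. Ppp3cc, a further calcineurin subunit gene, was at 1056, 1171 and 1478 in CTR and at 801, 1026 and 1233 in SCI3d, with overlap. Among the kinases that put phosphate back on NFAT, Gsk3b rose by 1.84 (SE 0.41, adjusted p = 0.00133) and Dyrk1a by 0.92 (SE 0.14, adjusted p = 1.14e-05). The Gsk3b signal was 748, 905 and 1363 in CTR and 1510, 3318 and 5773 in SCI3d, with no overlap. Dyrk1a was at 863, 1053 and 1172 in CTR and at 1436, 2038 and 2241 in SCI3d, again apart.

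Among inhibitors and anchors of calcineurin, Rcan2, a relative of Rcan1, had a log2 difference of -1.96 (SE 0.27, adjusted p = 2.67e-06) on day 3 and -1.10 (adjusted p = 0.0109) on day 8. Its signal was 5272, 6325 and 8011 in CTR and 883, 1756 and 2987 in SCI3d. On day 3 Rcan1 and Rcan2 thus lay on opposite sides of the control mean, though Rcan1 was not called. Rcan3 rose by 0.50 (adjusted p = 0.0483), and Cabin1, a calcineurin inhibitor, was at -0.35 (adjusted p = 0.0447), both near the threshold.

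The calsarcins split. Myoz3, the member of fast fibers, was at -2.48 (SE 0.29, adjusted p = 3.01e-07) on day 3 and -0.97 (adjusted p = 0.0376) on day 8. Myoz1, also of fast fibers, rose by 1.23 (adjusted p = 0.0249) on day 8 and 1.28 (adjusted p = 0.0317) on day 14, and was the 1 list gene called on day 14. Its signal was 3711, 5530 and 13612 in CTR and 8810, 15230 and 23527 in SCI14d, with overlap. Of the 14 genes, 2 rose and 2 fell on day 8, where 6.29% of all and 9.45% of the brighter probe sets were called. With training, 0 of the 14 were called on either day.

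**Figure D5:**
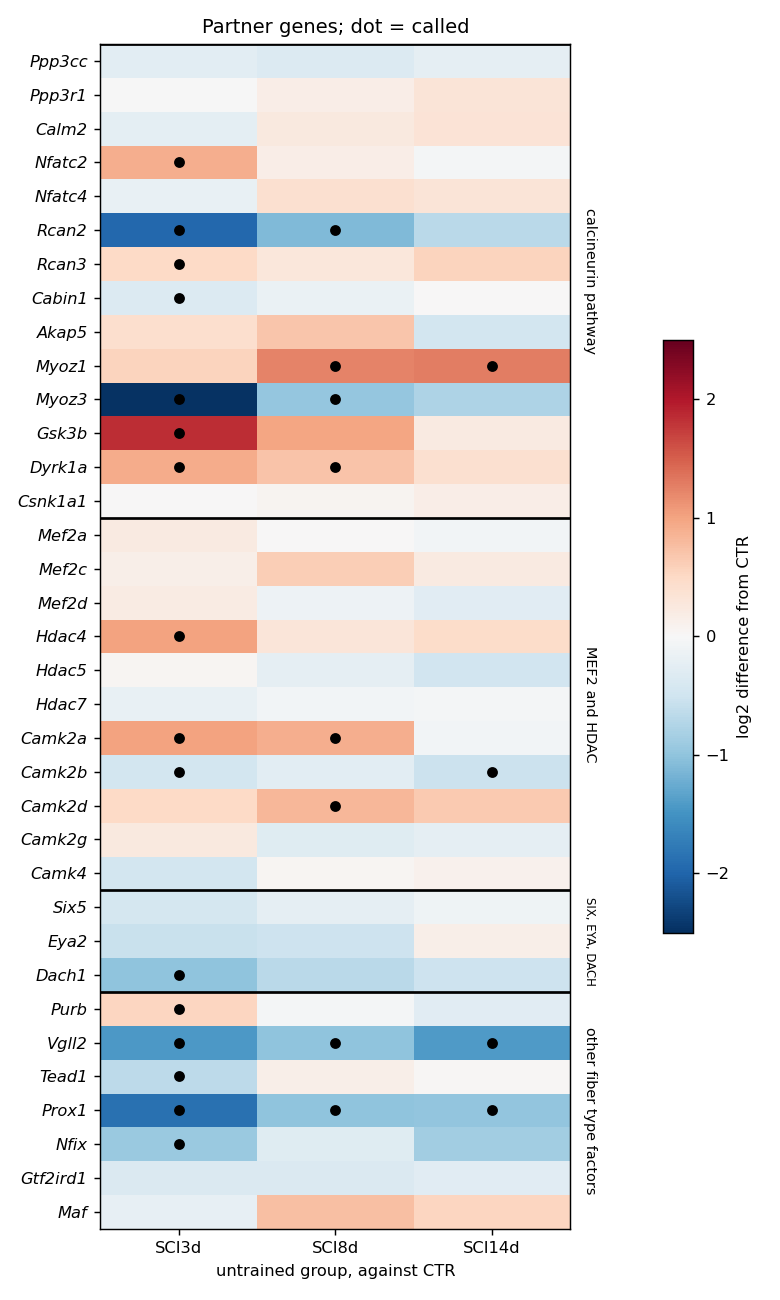
Log2 difference from CTR (color, scale at right) of the partner genes in 4 lists (rows) on days 3, 8 and 14 in untrained rats (columns), each over 6 and 6 arrays. Dots mark called differences. On day 3 the calcineurin list holds 4 rises and 3 falls, and Vgll2 and Prox1 are called as lower on all 3 days.

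Calcium also acts through CaM kinases, class II HDACs and MEF2 factors, another route to slow fiber genes. Of 11 measured genes of this list, 2 rose and 1 fell on day 3, a share near the 24.9% called among the brighter probe sets. Camk2a (1.003, SE 0.27, adjusted p = 0.00813) and Hdac4 (0.996, SE 0.28, adjusted p = 0.0117), which represses MEF2, were higher, and Camk2b (-0.46, SE 0.13, adjusted p = 0.00945) was lower. Camk2a (0.91, adjusted p = 0.0371) and Camk2d (0.83, adjusted p = 0.0285) were higher on day 8, and Camk2b (-0.53, adjusted p = 0.0166) was lower on day 14. Of the 11 genes, 2 were thus called on day 8 and 1 on day 14, against 6.29% and 3.19% of all probe sets. The list's median was 0.21 on day 3, against -0.04 for all probe sets, and 0 were called with training.

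Of 8 listed relatives and partners of Six4 and Eya1, 3 were measured. Dach1, a corepressor that works with Eya proteins, fell by 0.997 on the log2 scale on day 3 (SE 0.29, adjusted p = 0.0134). It was the 1 of the 3 called, where 16.5% of all and 24.9% of the brighter probe sets were called. Six5 and Eya2 were at -0.44 and -0.55 on day 3 (adjusted p = 0.162 and 0.269). On days 8 and 14, 0 of the 3 were called.

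Of 7 measured other fiber type factors, 4 fell and 1 rose on day 3, where 9.24% of all probe sets fell and 7.22% rose. Of the brighter probe sets, 24.9% were called in either direction. Prox1, a factor of slow fibers, was at 1763, 2289 and 2739 in CTR and 422, 603 and 1111 in SCI3d, with no overlap and a log2 difference of -1.87 (SE 0.22, adjusted p = 3.76e-07). On days 8 and 14 it was at -1.004 (adjusted p = 0.00554) and -0.99 (adjusted p = 0.0121). Vgll2, a cofactor of TEAD factors, was at -1.44, -1.003 and -1.41 on the 3 days (adjusted p = 0.000494, 0.0311 and 0.0059). Tead1 (-0.66, adjusted p = 0.00812) and Nfix (-0.93, adjusted p = 0.0234) fell on day 3, and Purb rose (0.53, adjusted p = 0.00435). On days 8 and 14, 2 of 7 fell each, against 6.29% and 3.19% of all probe sets called in either direction. On day 8, 9.45% of the brighter ones were called. The list's medians were -0.66, -0.31 and -0.29 on the 3 days against -0.04, 0.04 and 0.08 for all probe sets.

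The contractile genes that these regulators act on were read beside them. Of 8 slow genes, 0 were called on days 3 and 8 and 1 fell on day 14, Tpm3, slow tropomyosin (-1.02, SE 0.29, adjusted p = 0.0446). Myh7, the slow myosin heavy chain, was at 54687, 63029 and 87506 in CTR and 37777, 54080 and 66600 in SCI14d. Of 10 fast genes, 1 rose and 1 fell on day 3, a share between the 16.5% of all and the 24.9% of brighter probe sets called. On day 8, 4 rose and 1 fell, and on day 14, 2 rose, against 6.29% and 3.19% of all probe sets called. Of the brighter ones, 9.45% were called on day 8. Tnnt3, fast troponin T, rose by 1.42, 2.03 and 1.72 (adjusted p = 0.0213, 0.00442 and 0.0246), and Myh1, a fast myosin, was lower on days 3 and 8 (-1.07 and -1.28, adjusted p = 0.0262 and 0.02). The Myh1 value is uncertain, because its probe set is of the kind whose probes can also match related genes, here other myosins. Actn3, the actinin of fast fibers, rose on days 8 and 14 (3.86 and 4.18, adjusted p = 0.00722 and 0.00791), with signals as wide as 1793 to 37130 within SCI8d.

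The genes whose log2 signal followed each called gene most closely over the 36 arrays were taken from 10374 genes, as a description in which all points share arrays and groups. For Ppp3ca they were Atp2a1 (r = 0.772), the calcium pump of fast fibers, Mafa (0.756) and Gnl3 (0.681). For Ppp3cb they were Dcaf11 (0.888), Ltn1 (0.871) and Pecr (0.865). For Nfatc1 they were Klhl38 (0.886), Npr2 (0.873) and Zfp775 (0.871), and for Eya1 Afg1l (0.868), Trim35 (0.859) and Oxct1 (0.856), which breaks down ketone bodies.

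Within groups, after each group's mean was subtracted, the same correlations were 0.452 to 0.756 for Ppp3ca, 0.779 to 0.861 for Ppp3cb, 0.761 to 0.825 for Nfatc1 and 0.696 to 0.781 for Eya1. Chosen after the values were seen, Rcan1 ran with Bag2 (0.865), Asb5 (0.859) and Gsk3b (0.852), and within groups its correlation with Gsk3b was 0.907. Rats that were high or low in Rcan1 within a group were thus mostly so in Gsk3b too. Myoz2 ran with Hspb6 (0.919), Myl2 (0.904) and Tpm3 (0.896), of which Myl2 and Tpm3 are slow fiber genes.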

How the data were processed

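Total RNA of 36 soleus muscles, 6 per group, was measured on 1-colour Affymetrix arrays. The authors deposited 1 table of signal intensity for 31099 probe sets, which they made with MAS5 (version not given in the sources used here), linear and scaled per array. It holds 0 columns of other samples and no columns of comparisons. Groups and replicate numbers came from the sample titles. The signals were kept as deposited, and no other normalization was applied. The 57 control probe sets of the maker were left out, and log2 signals of the other 31042 were fitted in limma 3.58.1 (R 4.3.3) with 6 group means, 30 residual degrees of freedom and an intensity trend, and p-values were adjusted by the Benjamini-Hochberg method over all 31042. Called, rose and fell mean an adjusted p under 0.05. The same steps were tested on simulated data. The precision is limited by the number of arrays, and intervals are 95% limma intervals. Replicates are separate rats by the study's methods. Exact permutation tests were two-sided, used all 924 arrangements of 6 and 6 arrays, and are given without adjustment.

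Gene symbols came from the platform annotation, where 20826 probe sets had 1 symbol, 436 several and 9780 none. The 9 genes and all lists were chosen with earlier results of these data known. Besides the 9 genes, the text names the 3 genes of each list with the smallest p on days 3, 8 and 14, further genes of these lists chosen after their values were seen (Gsk3b, Nfatc2, Cabin1, Ppp3cc, Tead1 and Myh7), and the 3 genes most like each called gene. Alternatives were quantile normalization, median centring, scaling to Gapdh, an offset of 32, leaving out the dimmest 40% of probe sets, no intensity trend, array weights, the GAPDH ratio as a covariate, the groups of a comparison alone, the methods' t-test, other probe sets, a replicate block and each array left out. The arrays of high GAPDH ratio left out, replicates 5 and 6 as a batch term, any probe set of a gene and the within-array ratio were added after seeing the data. Labels and tables name no batch.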

Additional observations from a re-analysis of the deposited data

Results flagged for a closer look

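The Rcan1 signal of SCI8d replicate 1 was 4765, while the other 5 arrays of the group lay between 17944 and 35330, and its gap to the nearest was 0.662 of the group's range on the log2 scale. The Myoz2 signal of SCI14d replicate 4 was 12344, the other 5 lay between 35926 and 54774, and the gap was 0.717 of the range. Both gaps are above Dixon's critical value for 6 arrays. Chance alone marks about 1 in 20 groups, and 54 groups of 6 were examined. SCI14d replicate 4 also had a high GAPDH ratio, and with that ratio as a covariate the Myoz2 difference on day 14 was -0.69 (adjusted p = 0.046 in limma). The level of Ppp3cb differed between SCI14d and SCI3d by 0.53 on the log2 scale (adjusted p = 0.0172 in limma), a call that was lost with median centring (0.30, adjusted p = 0.245), with the mean of its probe sets (0.31, adjusted p = 0.0842), with the 2 groups alone (adjusted p = 0.104) and in the methods' t-test (adjusted p = 0.158), and whose sign turned with probe set 1379314_at (-0.32).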

How the results depend on the processing

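The 4 calls on day 3 were unchanged by quantile normalization, median centring, an offset of 32, leaving out dim probe sets, array weights and leaving out any 1 array (4 to 4 called), and ended for Ppp3cb or Ppp3ca only where the report says so. The count on day 8 was 1 with scaling to Gapdh, 5 if any probe set of a gene counted, and 1 to 3 with 1 array left out. It was 1 (Eya1 alone) without CTR replicate 2 or SCI8d replicate 2, 5 or 6, and 3 without SCI8d replicate 4, where Ppp3ca was called (0.28 to 0.39 with any 1 array left out). On day 14 it was 2 with median centring, 1 each with Gapdh scaling, without the dimmest 40%, with array weights, with the GAPDH ratio as a covariate, with probe set 1379314_at and with any probe set, and 0 to 1 with 1 array left out. Unadjusted, the methods' t-test called 7, 5, 4 and 0 on days 3, 8, 14 and with training on day 8, and 1 (Sox6) with training on day 14. Of all 31042 probe sets, that test called 7942, 6272 and 5238 on days 3, 8 and 14. With training it called 1252 on day 8 and 1785 on day 14. Gapdh scaling moved the median of all probe sets to 0.32 on day 14 and 0.12 for training on day 8, against 0.082 and 0.029. Under it signs turned on day 14 for Ppp3cb (0.18) and Nfatc3 (0.058), in training on day 8 for Ppp3ca (0.050), Rcan1 (0.085) and Sox6 (0.083), and in training on day 14 for Nfatc3 (-0.0082). Other turned values, all uncalled but the first, were on day 3 Sox6 by 1393376_at (0.75), by the mean of its probe sets (0.33), by quantile normalization (0.0092) and by median centring (0.0079), and Ppp3ca by 1398506_at (-0.49). On day 14 they were Six4 by median centring (-0.031), Ppp3ca by 1398506_at (-0.0068) and Ppp3cb by 1387261_at (0.078). In training on day 8 they were Rcan1 by quantile normalization (0.048) and the covariate (0.034), Ppp3ca by array weights (0.031) and 1368277_at (0.11), Sox6 by array weights (0.13) and the covariate (0.047), and Ppp3cb by 1387261_at (0.011), 1379314_at (0.27) and the mean (0.053). In training on day 14 they were Ppp3ca by 1398506_at (0.46) and the mean (0.041), and between SCI14d and SCI3d Ppp3cb by 1379314_at (-0.32). With 1 array left out, signs turned within -0.22 to 0.039 (Sox6, day 3), -0.022 to 0.38 (Sox6, day 8), -0.12 to 0.012 (Ppp3cb, day 14), -0.12 to 0.014 (its training on day 14) and -0.054 to 0.22 (Six4, day 14). In training on day 8 the ranges were -0.095 to 0.023 (Ppp3ca), -0.40 to 0.17 (Rcan1) and -0.13 to 0.26 (Sox6), and on day 14 -0.051 to 0.16 (Nfatc3). Called values ranged over -0.75 to -0.57 (Nfatc1, day 8), -0.54 to -0.41 (Nfatc3, SCI8d + TM against CTR) and 0.44 to 0.65 (Ppp3cb, SCI14d against SCI3d), and the uncalled day 14 values of Eya1 and Myoz2 over -0.76 to -0.50 and -0.77 to -0.34. The cause of these moves was not tested. The labels name no pairing of rats by replicate number. Over the brighter probe sets, with group means subtracted, the mean correlation of same-numbered arrays was -0.0783 to 0.129 between 2 groups. That of arrays with other numbers was -0.025 to 0.0172. Of 90 matches, each among 6 arrays, 21 were best with their own number. These values cannot exclude some shared handling by number. With a replicate block the counts were 4, 2, 0, 0 and 0, as without it. Of single values under other settings, 697 kept direction and side of the threshold, 13 lost a call, 25 gained one and 26 turned sign. Dim probe sets such as 1398506_at are limited by their signal over background.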
